A study of Brassica napus with 355 samples.

Results

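Chromosomes A01 and C1 are homoeologues, the matching chromosomes of the A and the C genome of Brassica napus (oilseed rape, swede and leafy kale types). They are described here by the 8961 of 106126 identifiers in the count tables that begin with BraA01g (3560 genes of A01, BraA01g01010R to BraA01g36600R) or Bo1g (5401 genes of C1, Bo1g001000 to Bo1g158950), taken in the order of the number in the identifier. The study compared well-watered plants (WW, held at 100% of pot capacity) with water-limited plants (WL, 20%) of 16 B. napus accessions and sequenced leaf RNA at ZT1, ZT7, ZT13 and ZT19, in hours after dawn. The accessions were Ab (Aburamasari), Al (Alaska_BnASSYST_004), Av (Aviso), Br (Bristol_BnASSYST-031), Ca (Campari_BnASSYST-075), Da (Darmor), DH12 (DH12075), DH20 (DH2075), Gr (Gruener Schnittrohl_BnASSYST-219), Mu (Musette_BnASSYST-056), Ne (NK_Nemax_BnASSYST-084), Qu (Quantum NE011), Se (Sensaton_NZ_BnASSYST-414), St (Stellar DH JZ111), Yu (Yudal_BnASSYST-241) and Ze (Zephir_BnASSYST-068). All plants were grown in the same experiment and gave the tip of their youngest leaf, and the labels disagree on the temperatures and the day length. There were 354 libraries (182 WW and 172 WL) in 128 groups of 1 accession, treatment and time point, of which 101 had 3 libraries, 24 had 2 and 3 had 1. Those with 1 library were Ab at ZT7, Ca at ZT13 and St at ZT7, all under WL. The protocol speaks of 3 individual plants, but no label ties a library to a plant, so the p-values measure the spread between these libraries.

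B. napus arose from crosses between B. rapa, which gave the A genome, and B. oleracea, which gave the C genome. A01 and C1 carry largely the same genes in largely the same order, and at meiosis they can pair with each other instead of with their own partners. Exchanges between them replace a stretch of one homoeologue by a copy of the other, so that a plant may carry extra copies of an A01 stretch and few or none of the C1 stretch that matches it, or the reverse. A01 and C1 are known for frequent exchanges of this kind. Counts of RNA show how much of each homoeologue was transcribed and sequenced, and gene copies were not counted here.

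A01 held 1.74 to 5.41% and C1 2.24 to 7.54% of the counts of a library, and library totals lay between 3216762 and 35177558 with a median of 18332048. Of these genes, 374 of A01 and 631 of C1 had no count in any library, and 1135 and 1631 had a mean of 5 CPM (counts scaled to the same total in each library) or more. In 2 libraries the profile of the A to C balance over 284 bins of 3 chromosome pairs was nearest to another accession than the label gives, and 4367 genes that are near 0 in some accessions gave the same answer. The library labelled Al under WL at ZT19, replicate 3, had a correlation over bins of -0.03 with the other Al libraries and of 0.85 with DH12, and the library labelled DH12 under WW at ZT19, replicate 3, one of 0.03 with DH12 and of 0.63 with Al. Both stayed in the groups their labels give, and results they touch are also given without them.

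The balance was followed in 71 bins along the chromosomes. A bin held 50 consecutive genes of A01 (60 in the last) and the C1 genes at the same relative rank, about 76, and its balance was the log2 ratio of their summed counts. The pairing by rank is only approximate. The 4 pairs of genes that share a rare GO term and keep the same order lay at 9.58, 15.8, 24.5 and 66.9% of the length of A01 in genes, and at 25.1, 30.1, 37.3 and 72.1% of C1. A further pair, BraA01g31460R and Bo1g002260, did not keep the order and lay at 85.5% of A01 and 0.5% of C1. The A01 and the C1 side were therefore also tested on their own, in windows of 50 genes, and are given by identifier.

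Over the whole chromosomes, C1, with 5401 genes against 3560 of A01, gave on average more counts than A01 in every accession but Gr. Counts were not scaled by the number of genes. The share of A01 in the summed counts of both was 20.7 to 65.5% in single libraries, with a median of 35.3%. Gr, a leafy kale type, had 53.2% ± 9.60 (SD, n = 22) and St 41.5% ± 2.60 (n = 19). The other 14 accession means lay between 30.8% ± 3.00 in DH20 (n = 23) and 36.6% ± 1.59 in Br (n = 22), and neighbours in this order differed by less than the larger of their SDs. The SD was largest in Gr and next in DH12 (36.6% ± 4.18, n = 23), and the single libraries of Gr ran from 33.6 to 65.5%.

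**Figure D1:**
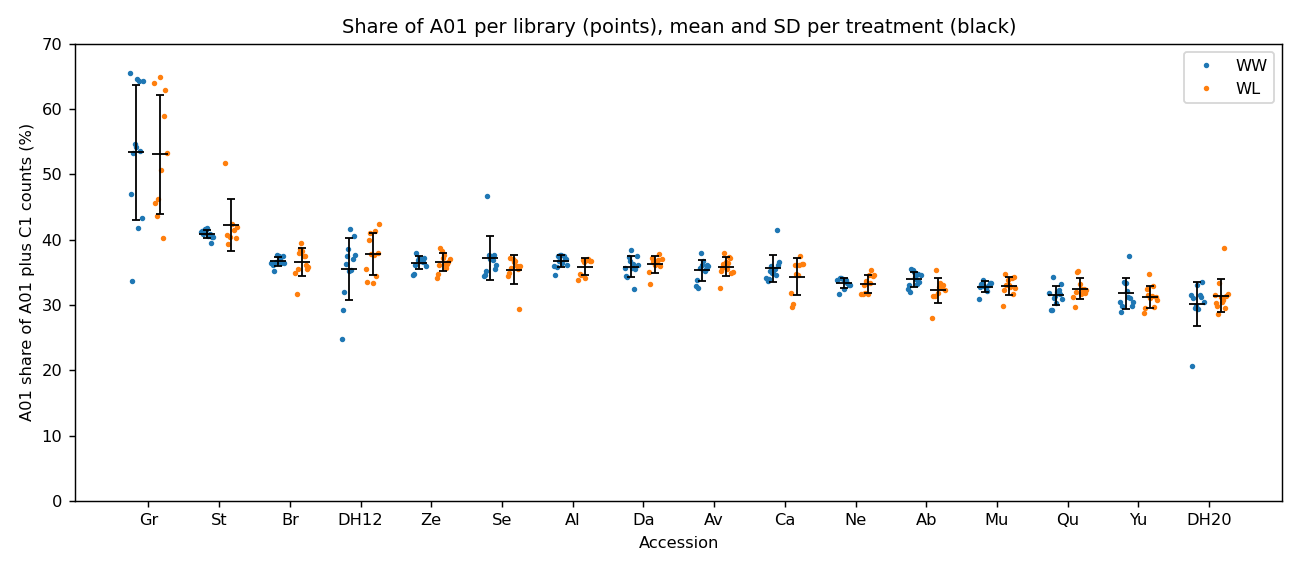
Share of A01 in the summed counts of A01 and C1 (%) for each of the 354 libraries, by accession, with WW and WL side by side and the mean and SD of each in black. Gr stands above the other accessions and spreads from 33.6 to 65.5%, and WW and WL overlap in every accession.

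Along the chromosomes the accessions were alike in the first part and unlike at the far end. The test set each accession against the mean of the other 15 and asked for more than a 2-fold difference in the ratio of A01 to C1 (limma, adjusted p of 0.01 or less). It called 161 of 1136 tests of a bin in an accession, 14.2%, with A01 higher in 107 and C1 higher in 54, against 7.59% over the 3 chromosome pairs tested (10.6% for A02 and C2, 1.45% for A03 and C3). Without the 2 libraries it called 168. In bins 1 to 45 only Gr was called, in 15 of 720 tests (2.08%). In bins 46 to 71 the calls came to 146 of 416 (35.1%), and in the last 9 bins, 63 to 71, to 99 of 144 (68.8%). The SD of the balance over accessions had a median of 0.37 (log2) in bins 1 to 45 and of 1.17 in bins 46 to 71. Without Gr these values were 0.23 and 1.06.

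**Figure D2:**
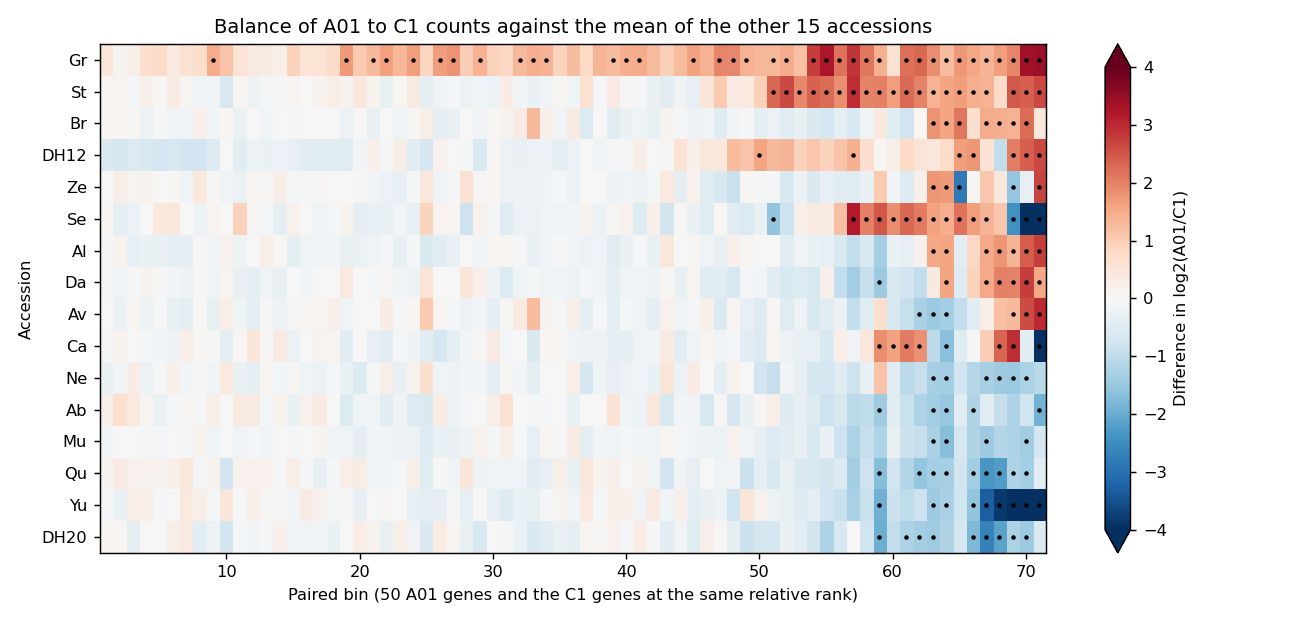
Balance of A01 to C1 counts in each of the 71 paired bins (horizontal axis, in identifier order) for each accession (rows), as the difference in log2(A01/C1) from the mean of the other 15 accessions at the same treatment and time point. Red is A01 higher and blue C1 higher, colours stop at 4 and -4, and a dot marks a called bin: 146 of the 161 lie in bins 46 to 71.

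The accessions left the common level at different points, and the share of A01 within a stretch shows where. In bins 13 to 45 the accession means ran from 33.9% (DH12) to 37.2% (Av), with Gr at 52.4% ± 16.3. In bins 51 to 56 (A01 genes from BraA01g26010R, C1 genes from Bo1g105260) St stood at 81.7% ± 3.17 and Gr at 79.6% ± 4.30. DH12 had 66.1% ± 15.7 there (67.3% ± 14.9 without the library nearest to Al), and the other 13 accessions had 39.6 to 54.05%. In bins 57 to 62 Se joined them at 82.1% ± 1.5, beside St at 78.9% ± 4.84 and Gr at 70.7% ± 4.08, with Ca between at 62.3% ± 7.49. In bins 63 to 66 Br followed at 76.2% ± 1.42. There 5 accessions were above 70%, 3 lay between 50 and 70% (Al, Da and Ze), and 8 between 35.0% (Yu) and 40.3% (Ca).

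Nearer the end the order of the accessions changed again. In bins 67 and 68 (from BraA01g34010R and Bo1g145120) 9 accession means were over 70%, from Av at 71.9% ± 2.07 to Ca at 84.1% ± 1.11, and Yu was lowest at 14.3% ± 1.93. Al had 83.5% ± 6.78 there, and 84.9% ± 1.31 without the library nearest to DH12, above Ca. In the last bins, 69 to 71 (from BraA01g35010R and Bo1g151590), the accession means ranged from 2.72% ± 0.21 in Yu and 5.51% ± 0.96 in Se to 86.1% ± 1.19 in Gr. The libraries of Yu lay between 2.30 and 3.13% and those of Gr between 83.9 and 87.4%, so that the SD within an accession was small beside the distance between them. The means of 6 accessions were above 70% (Gr, St, DH12, Av, Al and Da), Br and Ze stood at 60.9 and 56.3%, and 5 (Qu, DH20, Mu, Ab and Ne) lay between 29.95 and 34.6%. Ca, with Al among the highest in bins 67 and 68, had 21.5% ± 3.05 here.

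A run of at least 3 neighbouring called bins in the same direction, with a gap of at most 1 bin, was found in 14 of the 16 accessions, and Mu and Ze had none. The longest was that of Gr, bins 45 to 71, in which the balance differed from the other accessions by a mean of 1.90 (log2) and A01 had 73.9% ± 6.44 of the counts against a mean of 45.6% in the others. St followed with bins 51 to 71, a mean difference of 1.99 and 79.9% ± 3.13 against 48.4%. Its 19 libraries all had the same sign, at medians over the run of 0.94 to 2.44. Se had bins 57 to 67, with a mean difference of 2.02 and 80.8% ± 1.2 against 48.1%, and libraries between 1.66 and 2.25. Br had bins 63 to 70 (1.59, 78.4% ± 1.06 against 54.3%). In each of these runs the A01 side was higher and the C1 side lower than in the other accessions, and the C1 side differed more on the log2 scale. St had 0.61 on A01 and -1.38 on C1, Se 0.43 and -1.58, Br 0.57 and -1.02, and Gr 0.53 and -1.37. The sum of both sides differed by -0.22 in St, -0.37 in Se, -0.13 in Br and -0.24 in Gr.

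Runs in the other direction were led by Yu. In bins 63 to 71 its balance differed by -3.16, A01 had 16.7% ± 1.27 of the counts against 54.9%, and the 23 libraries lay between -3.63 and -2.83. Here the A01 side was lower by 1.89 (log2 difference of -1.89) and the C1 side higher by 1.27. Se changed direction within the last bins: after its run of higher A01 it had bins 69 to 71 with a mean difference of -4.18, with -2.74 on A01 and 1.44 on C1. Qu (bins 62 to 70, -1.50), DH20 (59 to 63, -1.41, and 66 to 70, -1.87), Ne (67 to 70, -1.37) and Ab (63 to 66, -1.13) also had lower balances. Over these runs A01 had 34.2% of the counts in Qu, 32.9 and 30.7% in DH20, 39.2% in Ne and 36.7% in Ab. The largest difference of DH20 and of Qu was in bin 67, where A01 had 19.7 and 23.3%. Shorter runs with A01 higher were those of Ca (59 to 62, 1.84), Al and Da (67 to 71, 1.96 each), DH12 (69 to 71, 2.36) and Av (69 to 71, 2.30), and Av had C1 higher before it (62 to 64, -1.38).

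The largest difference in a single bin was that of Yu in bin 70, -5.93, with 5.48% ± 1.04 of the counts on A01 against 71.3% in the others. Se followed in the same bin with -5.21, and Ca had -4.46 in bin 71, where A01 held 2.84% ± 0.32. In Gr, Av, Al and DH12 the same bin 71 was the largest in the other direction, at 3.45, 2.97, 2.78 and 2.66. Ze, which had no run, had 14.8% ± 1.92 in bin 65 against 54.1%, and its neighbours in bins 63 and 64 were called with A01 higher.

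Windows of single chromosomes, tested by edgeR against a 1.5-fold change, gave 329 calls of 2864, 11.5% against 3.62% over all 19 chromosomes. C1 had 113 windows higher and 160 lower of 1728 tests and A01 37 higher and 19 lower of 1136. Runs of lower C1 windows began at Bo1g103840 in St, at Bo1g114760 in Gr (which also had lower runs from Bo1g004980 and Bo1g065130), at Bo1g119230 in Se, at Bo1g126180 in Ca and at Bo1g141570 in DH12. In St this run reached to Bo1g147520, 26 windows with a median of -1.59 (log2), and in Se to Bo1g150500, 19 windows with a median of -1.65. Window 95, which starts at Bo1g139080, opened a run of higher C1 in 6 accessions (Av, DH20, Mu, Ne, Qu and Yu) and of lower C1 in 2 (Al and Br). Window 102, from Bo1g147530, opened another, lower in 3 (Av, Br and Da) and higher in Yu. On A01, the windows from BraA01g34010R to the end were lower in Yu (median -3.20) and higher in Al (0.97), those from BraA01g35010R to the end were lower in Se (-3.28), and St had higher windows from BraA01g24010R to BraA01g27000R (0.87).

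**Figure D3:**
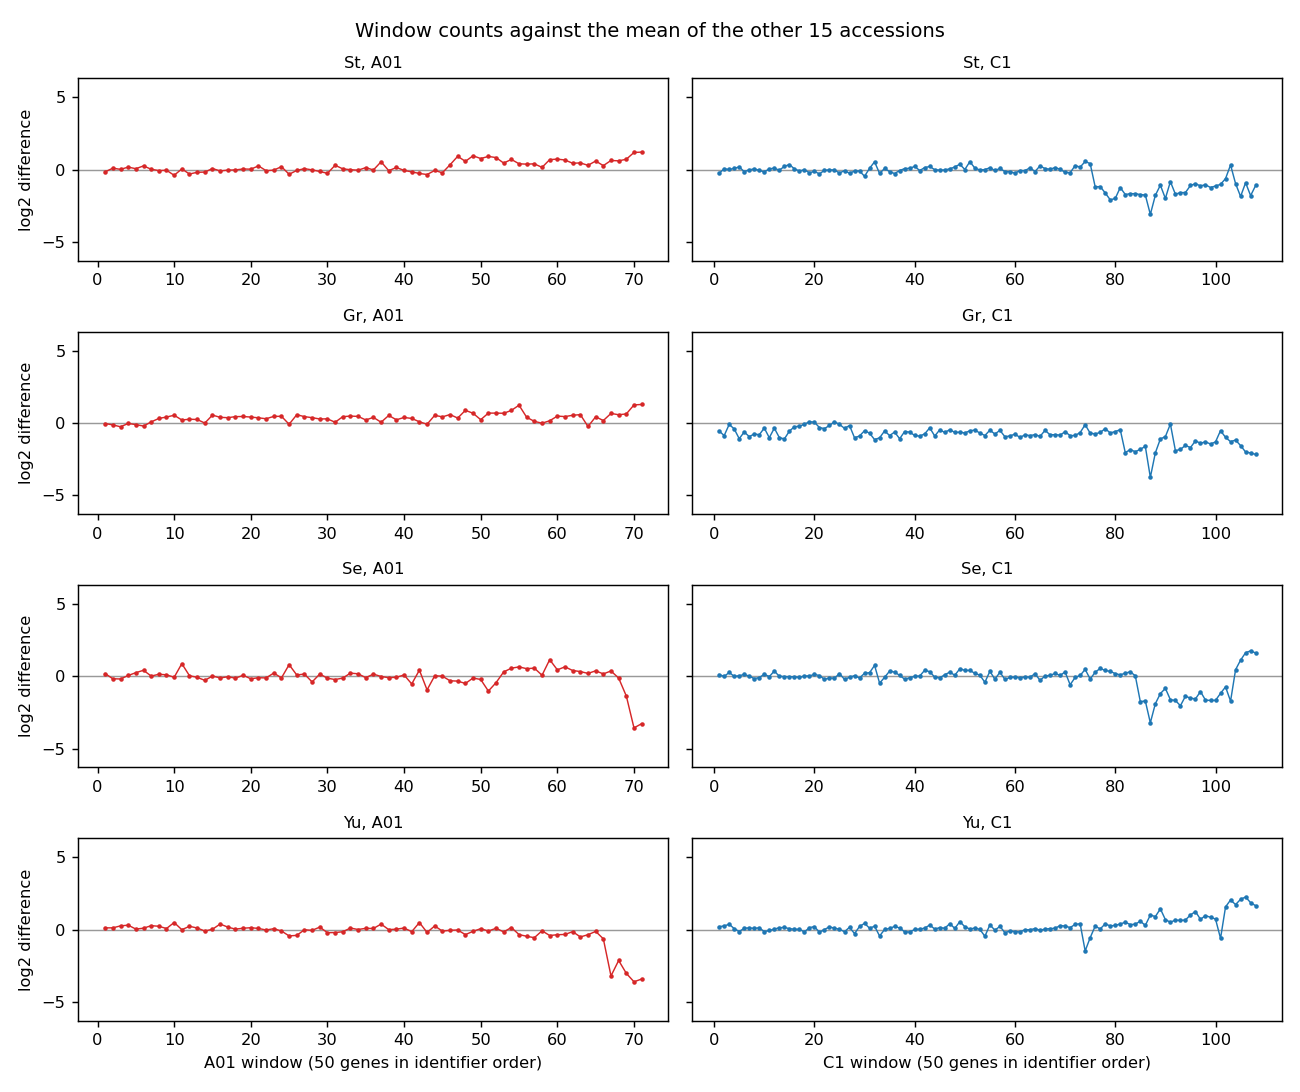
Counts in windows of 50 genes along A01 (left, 71 windows) and C1 (right, 108 windows) in St, Gr, Se and Yu, as the log2 difference from the mean of the other 15 accessions. In windows 76 to 101, C1 of St is lower by a median of -1.59 while its A01 is higher, and Yu shows the reverse at the end, with A01 lower by a median of -3.20.

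Many single genes on the lower side of the runs with A01 higher, and few on that of most runs with C1 higher, were lower 10-fold or more. Among genes with a mean of 5 CPM or more in the other 15 accessions, 356 of 18120 tests of an A01 gene (1.96%) and 854 of 25998 of a C1 gene (3.28%) were lower 10-fold or more, against 1.78% of all genes tested. No gene of A01 or C1 among them was 10-fold or more higher, against 0.00811% of all. The limit of 5 CPM leaves out genes near 0 in the other accessions, so higher and lower counts cannot be compared. In Gr 175 C1 genes (10.6%) and 16 A01 genes were lower 10-fold or more, in St 99 and 13, and in Yu 27 C1 genes and 82 A01 genes (7.21%). Within the runs, 83 of 403 such C1 genes were lower 10-fold or more in St, 119 of 502 in Gr and 47 of 203 in Se, and 68 of 170 A01 genes in Yu. The runs were called on these same counts, so a raised share on their lower side follows in part from that choice. In the 9 accessions whose longest run had A01 higher, 20.6 to 31.2% of its C1 genes past the limit of 5 CPM were lower 10-fold or more. On the lower A01 side of the runs with C1 higher the share was 40.0% in Yu and 63.5% in Se, and 0 to 4.82% in Ab, Av, DH20, Ne and Qu. The remaining genes moved less: on A01 of the St run 289 of 349 genes were higher than in the other accessions, with a median of 0.44 (log2).

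The gene with the highest level among those was Bo1g123360, which lies in bin 57 on C1. Its level, in CPM, was 1.36 in Gr as the mean of the group means, and 0.30 to 2.82 in its 22 libraries with a median of 1.32. In Se the 22 libraries lay between 13.6 and 49.96 CPM, and in DH20 the 23 libraries between 10.8 and 37.5 CPM. In 11 accessions the median was 676 CPM or more, up to 1068 in Av. St had a median of 8.35 CPM, and 18 of its 19 libraries were at 15.1 CPM or less, while the library under WL at ZT7, replicate 2, had 377 CPM. DH12 had a median of 14.6 CPM over 23 libraries and a highest value of 671 CPM in the library nearest to Al, and Al had a median of 678 CPM and a lowest value of 4.01 CPM in the library nearest to DH12.

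The other genes named by the same rule were at both ends of the range as well. Bo1g141230, on C1, had means of 0.80 CPM in Se, 0.82 in Gr, 0.11 in Da and 3.72 in Br, and of 218.7 CPM in Ca. Bo1g139920, on C1, had 0.91 CPM in Br, 0.82 in Ze and 0.85 in Al, and 111 CPM in Av. For Bo1g156180, on C1, the means were 0.95 CPM in DH12 and 2.60 in St, and 342 CPM in Yu, and Bo1g152160, on C1, had 6.81 CPM in both Gr and Ca and 222 in Yu.
On A01, BraA01g34180R and BraA01g34220R lay close together in order, and both were near 0 in Qu, DH20 and Yu. BraA01g34180R had 0.17 CPM in Qu, 0.17 in DH20 and 0.14 in Yu, and 186 CPM in Al, and BraA01g34220R had 0.14, 0.24 and 0.018 CPM in the same 3 and 70.7 CPM in Ca. In DH12 the first had 13.0 CPM and BraA01g34220R 2.14 CPM. Both means include the DH12 library nearest to Al, where the genes had 186 and 48.3 CPM. Means without that library are not given, so DH12 cannot be placed between the low and the high accessions. BraA01g35920R and BraA01g35660R were low in Yu (5.76 and 0.71 CPM), Se (5.90 and 0.46) and Ca (0.51 and 1.07), and highest in Gr (335 and 299). What these genes do is not given, since the identifiers are paired with no gene names.

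Gr and DH12 also differed among their own libraries. In bins 19 to 45 (BraA01g10010R to BraA01g23500R) the share of A01 in the 22 Gr libraries was 27.1% at the lowest, 53.1% at the median and 79.6% at the highest, while the means of the other accessions lay between 32.9 and 37.3%. In that stretch 7 libraries had 73.6 to 79.6% (4 WW and 3 WL) and 15 had 27.1 to 57.2% (8 WW and 7 WL), with no library between. A level here is a set of libraries parted from the rest by a gap of 8 points or more. The lower level of Gr is wide, so these levels are not shown to be single states. The log2 CPM of the A01 side varied from 13.1 to 14.3 over these libraries and that of the C1 side from 11.8 to 14.6. In bins 54 to 71 the same 22 libraries were alike, at 76.6 to 82.8% with an SD of 1.65. One library, WW at ZT7, replicate 3, changed level within the stretch: it had 57.2% over bins 19 to 45 and 84.0% over bins 37 to 52, against a median of 62.02% in the other Gr libraries. Another, WW at ZT1, replicate 3, was lower than all other Gr libraries over bins 1 to 52, at 23.5% against 31.0 to 61.5%.

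DH12 varied in bins 48 to 60. Without the library nearest to Al, the share of A01 ran from 32.8 to 86.5%, with 13 libraries between 32.8 and 58.6% (8 WW and 5 WL), 8 between 72.2 and 78.1% (3 WW and 5 WL) and 1 at 86.5% (WL). The other accession means lay between 34.7 and 70.9%. Over bins 1 to 9 the DH12 libraries ran from 4.24 to 20.3%, against accession means of 16.9 to 23.98%, and over bins 19 to 42 a single library, WW at ZT1, replicate 1, had 18.0% while the others had 30.1 to 40.4%. Both levels of Gr in bins 19 to 45 occurred under WW and under WL and at 3 or more time points. So did the levels of DH12 at 32.8 to 58.6% and at 72.2 to 78.1% in bins 48 to 60. The level of 86.5% and that of 18.0% in bins 19 to 42 each rest on 1 library, and so on 1 treatment and time point.

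Single libraries that left the level of their own accession over 6 or more bins were found in 9 of 309 libraries outside Gr and DH12, in 4 accessions, beside the Al library that was nearest to DH12, by a rule chosen after the values were seen (a running median of 7 bins that differed by 0.5 or more on the log2 scale). The library of Ze under WW at ZT1, replicate 2, had 36.3% of A01 over bins 1 to 25, against 25.5 to 32.6% in the other Ze libraries, and 25.9% over bins 29 to 57, against 38.6 to 44.2%. The library of Se under WL at ZT19, replicate 2, had 19.2% over bins 18 to 54 against 32.8 to 49.5%, and that of Se under WW at ZT7, replicate 1, had 45.6% over bins 3 to 51 against 24.3 to 34.3%. St under WL at ZT1, replicate 2, had 45.3% over bins 1 to 47 against 29.2 to 32.9%, and St under WL at ZT7, replicate 2, had 62.6% over bins 50 to 67 against 61.4 to 82.4%. The last is the library with 377 CPM of Bo1g123360. DH20 under WW at ZT1, replicate 2, was low along the whole chromosome, at 9.17, 22.6 and 23.2% in its 3 stretches, against medians of 17.9, 33.2 and 34.7%. Over the other 17 chromosomes the share of the A genome in these libraries lay within the range of their own accession in each case, 44.3% in the first St library and 45.4% in the second, for example, against 43.6 to 45.5%. Ab, Av, Br, Ca, Da, Mu, Ne, Qu and Yu had no such library.

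The balance of the paired bins also changed with the time of day. The pairing by rank is only approximate, so the A01 and C1 genes of a bin need not be homoeologues of each other. A test over the 16 accessions with the accession as a block called 50 of 71 bins (70.4%), against 86.6% over the 3 chromosome pairs. The largest range was that of bin 46 (BraA01g23510R to BraA01g24000R), where the mean of log2(A01/C1) was -1.71 at ZT7 and 0.03 at ZT1, followed by bin 17, with -2.02 at ZT7 and -0.38 at ZT19. Of the 50 bins, 40 were also called with the highest gene of each side left out.

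The balance of the whole chromosomes did not differ between WL and WW beyond the spread between accessions. The share of A01 under WL minus that under WW, averaged over time points, had a mean of 0.018 percentage points over the 16 accessions (SD 1.06), was lower in 8 and higher in 8, and an exact two-sided sign-flip test gave p = 0.948. Within accessions, an exact permutation test within time points gave an adjusted p of 0.0155 in Ab, where the mean fell from 33.95% ± 1.16 (n = 12) to 32.23% ± 1.85 (n = 10), a difference of -1.196 points over time points, and the ranges overlapped. This call was lost when any replicate number was left out. In Al the difference was -0.67 points (p = 0.033, adjusted 0.263, two-sided permutation test), and the other accessions had adjusted p-values of 0.263 or more. The largest difference was in DH12, at 2.39 points (adjusted p = 0.312, permutation test), and the smallest sizes were in Ne and Mu.

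Within accessions, WL changed the balance of 5 of 1136 bins (0.44%, against 1.78% over the 3 pairs), 4 of them in DH12. In DH12 the A01 side was favoured under WL in bins 51, 55, 56 and 59, by 0.86, 1.08, 0.78 and 0.76 (log2). In bin 55 the share of A01 had a median of 66.6% (48.9 to 87.6%) under WW and of 88.7% (50.6 to 94.4%) under WL, so the groups overlapped. These 4 bins lie in the stretch in which the libraries of DH12 differ by level, whose median was 55.6% under WW and 72.2% under WL. Without the 2 libraries nearest to another accession the adjusted p was 0.0179, 0.00151, 0.0257 and 0.0745, so that only bin 55 was still called. The part of the library levels in this difference was not tested. The remaining call was bin 69 of Ca, at -0.48 (adjusted p = 0.00788, limma), with a median share of 83.0% under WW and 77.7% under WL. Counting calls at an unadjusted p of 0.05, Ca had 17 bins and DH12 21 of 71, and Ze had 1. Leaving out replicate 1, 2 or 3 changed the share called to 0.264, 2.46 and 0.176%.

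The difference between accessions was tested directly, as WL minus WW in an accession against the mean of the others. It called 2 of 1136 bins (0.176%, against 0.22% over the 3 pairs), bins 55 (0.91, adjusted p = 0.00391) and 56 (0.97, adjusted p = 0.000188) of DH12. Without the 2 libraries their adjusted p-values were 0.059 and 0.00396. The share called was 0.264% without them, and 0.088, 1.5 and 0.176% without replicate 1, 2 or 3.

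Shared over the accessions, the WL effect was small and depended on the bin. As over the day, the sides of a bin need not hold matching genes. With 1 value per accession, 19 of 71 bins were called (26.8%, against 32.7% over the 3 pairs), 10 with A01 favoured under WL and 9 with C1 favoured, at sizes of 0.13 to 0.46 (log2). Without the highest gene of each side, 7 of the 19 were still called and 6 others were added. Without Gr and DH12, 13 of the 19 were still called and 2 others were added, and leaving out replicate 1, 2 or 3 changed the share called to 14.1, 15.5 and 16.9%. Bin 33 (BraA01g17010R to BraA01g17500R) had the largest mean, 0.46 ± 0.065 (SE), was higher in 16 of 16 accessions, from 0.037 in Yu to 0.84 in Ca, and fell to 0.056 without the highest gene of each side, when it was not called. Bin 12 (BraA01g06510R to BraA01g07000R, Bo1g014300 to Bo1g016040) had -0.26 ± 0.048, was lower in 15 of 16 accessions, and stayed called at -0.31 without those genes. Bins 25 and 37 were lower in 15 of 16 as well, at -0.27 and -0.26. Bin 37 kept its value of -0.26 without the highest genes, and bin 25 changed to -0.029 and was not called. The bins of the far end, 63 to 71, where the accessions differed most, held no shared call.

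**Figure D4:**
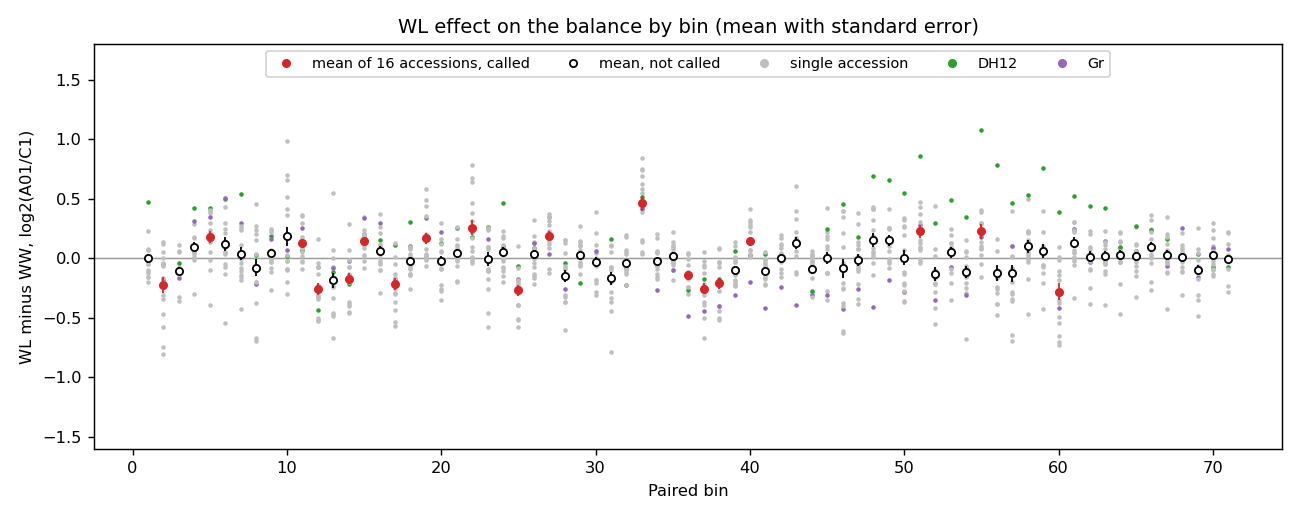
Effect of WL on the balance, as WL minus WW of log2(A01/C1), in each of the 71 paired bins. Small points are accessions, with DH12 and Gr in colour, and large points are the mean of the 16 accessions with its standard error, filled where called. The called means lie between -0.28 and 0.46, and DH12 reaches 1.08 in bin 55.

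Single genes of A01 and C1 were called for WL in few accessions. The level test (edgeR quasi-likelihood test with Benjamini-Hochberg adjustment over all genes of an accession, adjusted p of 0.01 or less) called 229 of 74666 tests of an A01 or C1 gene, 0.307% against 0.452% of all genes. Of these, 39 rose and 56 fell on A01, and 53 rose and 81 fell on C1. DH12 had 146 of the calls, Br 42 and Mu 23. Leaving out replicate 1, 2 or 3 left 36, 78 and 248 calls, and DESeq2 made 2229. An unadjusted p of 0.05 was reached by 13319 of the 74666 level tests with edgeR, against 164928 of 873414 over all genes. The 229 calls came from 207 genes, of which 187 were called in 1 accession, 18 in 2 and 2 in 3, and no gene was called in both directions. The test of the pattern over the day called 3, 1 in DH12 and 2 in St (0.0129% over all genes), and DESeq2 called 454, while 5728 tests reached an unadjusted p of 0.05. Pooled over accessions, 15 of 9286 tests within the runs of called bins were called (0.162%) and 214 of 65380 outside them (0.327%). The 23 calls of Mu all count as outside, since Mu had no run. The share inside was lower in Br (0.825 against 0.932%), DH12 (2.38 against 3.14%) and Gr (0.0786 against 0.114%, 2 calls inside and 2 outside). It was higher in St (0.148 against 0.0286%, 2 inside and 1 outside) and Yu (0.322 against 0.0734%, 2 inside and 3 outside). The shares of Gr, St and Yu thus rest on a few calls. In Ab, Av, Da and Ne it was 0 inside and 0.0217 to 0.0717% outside. In bins 48 to 60 of DH12, 8 of 359 A01 genes and 4 of 436 C1 genes were called (1.51% of both, against 3.43% of the other A01 and C1 genes and 5.1% of all genes in DH12), and the median change of all tested was 0.10 (log2) on A01 and -0.32 on C1.

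Bo1g039700, on C1, rose in the most accessions. The mean of WL minus WW was 1.19 (log2), positive in 16 of 16, and the calls were in Ab (2.26 ± 0.31 SE, adjusted p = 0.00593), DH12 (1.26 ± 0.21, 0.0011) and Yu (2.26 ± 0.26, 0.000798). In Yu its mean level went from 59.2 CPM under WW to 292 CPM under WL, and in Ab from 65.8 to 367 CPM. BraA01g28990R, on A01, fell in the most. Its mean was -1.65, negative in 16 of 16, with calls in Br (-2.70 ± 0.35, adjusted p = 0.00132), DH12 (-1.38 ± 0.27, 0.00337) and Gr (-1.61 ± 0.28, 0.00983), and in Br the mean level went from 33.4 CPM to 6.28 CPM.

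The other genes named by this rule were called in at most 2 accessions. Among the rises, BraA01g15840R had a mean of 1.51 and was higher in 16 of 16, with calls in DH12 (2.69) and Gr (1.58). BraA01g05860R had 0.30 (called in DH12 and Mu), BraA01g19520R 1.73 (called in DH12), Bo1g011460 0.67 (called in Br and DH12) and Bo1g003300 0.37, higher in 16 of 16 (called in DH12 and Mu). Among the falls, Bo1g002310 had a mean of -1.82 and Bo1g021420 of -1.98. Both were lower in 16 of 16, as was Bo1g053730 at -1.10, and all of these were called in Br and DH12. BraA01g03900R had -2.12 (called in Br and Mu) and BraA01g06600R -0.84 (called in DH12 and Gr). Bo1g123360 was called in St alone, at 2.19, where its mean of 102 CPM under WL rests on the library with 377 CPM and that under WW was 5.69.

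The genes with the highest levels were not called in any accession. BraA01g05540R had a mean of 2286 CPM, from 1255 in Qu to 3340 in Yu, and BraA01g28230R had 695 CPM, from 374 in DH20 to 1680 in Gr. On C1, Bo1g008520 had 3608 CPM, from 2747 in Br to 4822 in DH20, and Bo1g003290 had 1525 CPM. Their mean WL minus WW was 0.22 to 0.26 (log2). The study lists genes of enriched GO terms, which it chose on these samples, so their direction is not independent evidence. In the part of that list used here, 39 genes lay on A01 or C1, and 1 of 624 tests was called higher and 7 lower (1.28%), with a median of -0.24 (log2), against 0.452% of the tests of all genes and 0.307% of those of A01 and C1. The 11 genes under autophagy had 3 falls, the 14 under biotic stress 6 and the 21 under carbohydrate metabolic process 4 falls and 1 rise, with some genes under several terms. Bo1g017420, listed under biotic stress and carbohydrate metabolic process, fell in Br (-1.48) and DH12 (-1.39) and was lower in 16 of 16. BraA01g15020R, listed under autophagy, fell in DH12 (-0.49).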

How the data were processed

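The authors trimmed reads with Trimmomatic 0.33, mapped them with HISAT2 2.1.0 to the joined genomes of B. rapa R500 (A genome) and B. oleracea TO1000 (C genome), and counted them with featureCounts, in which a read with several alignments adds a fraction to each place. Such reads from near-identical homoeologues are split between A01 and C1, so genes with a close copy are uncertain and differences may be understated. The deposited estimated counts are not normalized, and 22.6% of the A01 and 17.5% of the C1 values are not whole. They were rounded for the count tests. The authors also deposited log2 FPKM without genes that did not vary, which were not used here. No genome or gene names of these builds were used, and order along the chromosomes is that of the identifiers.

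Counts were summed in windows of 50 genes over 19 chromosomes and tested with edgeR 4.0.16 (glmTreat, 1.5-fold, TMM). Paired bins were tested with limma 3.58.1 (treat, 2-fold, for accessions and eBayes with trend for WL, differences and time) on log2((A + 0.5)/(C + 0.5)), over A01/C1, A02/C2 and A03/C3, with 128 group means and no block. Genes were tested by accession with edgeR's quasi-likelihood test, and calls used the Benjamini-Hochberg adjustment over all features of a test and were made at 0.01 or less, or 0.05 for whole chromosomes. Differences over 16 accessions used all 65536 sign flips. The tests of bins, windows and gene levels were tried on simulated data. The window test used faster code for the method of glmTreat, compared with glmTreat itself on part of the windows in St and Gr. No 2 libraries held identical counts, and the counts of 1 library (Br, WW, ZT13, replicate 1) were not used here. Groups of 1 library add to means but not to the spread. In St the pattern over the day under WL at ZT7 rests on replicate 2 alone, a library that left the level of its accession.

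Named were, for each accession, the longest run of called bins and the bin with the largest difference. Of single genes were named, on each chromosome, the 3 rises and the 3 falls under WL called in most accessions (only of genes tested in all 16), the 2 highest genes per run that were lower 10-fold or more for the 6 longest runs, the 2 highest genes per chromosome, and the GO gene of each term called most often. The stretches of Gr, DH12 and the distal bins were chosen after their values were seen. The members and lists were chosen with earlier results of these data known. Alternatives were other normalization, filters, tools, window sizes, pseudocounts, pairings of A01 and C1 (only for differences between accessions), the replicate number as a block, and left-out genes, replicates, libraries and accessions.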

Additional observations from a re-analysis of the deposited data

Results flagged for a closer look

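The effect of WL on the balance of A01 to C1 differed between DH12 and the mean of the other accessions in 2 bins, by a test of the difference itself. WL minus WW was 0.913 (log2) higher in DH12 in bin 55 (adjusted p = 0.00391, limma) and 0.966 higher in bin 56 (adjusted p = 0.000188). Within DH12, WL minus WW was 1.08 and 0.78 in these bins, and the ranges of WW and WL libraries overlapped in both. Without the 2 libraries nearest to another accession the adjusted p was 0.059 for bin 55 and 0.00396 for bin 56. Both bins lie in bins 48 to 60, where the share of A01 ranged from 32.8 to 76.6% in the WW libraries of DH12 and from 39.35 to 86.5% in its WL libraries, and the part of that spread in the difference was not tested.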

How the results depend on the processing

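The share of accession tests called on A01 and C1 was 11.5% of windows and lay between 10.3 and 12.1% in every alternative run. Of the balances of paired bins, 14.2% were called, which fell to 9.15% with the order of C1 reversed and lay between 11.8 and 16.8% in every other alternative. Bins called over the day kept within 1.5 times of 70.4% in every alternative counted. Other pairings of A01 and C1, and the median over genes, were counted only for the differences between accessions. How the calls for the day and for WL change with the pairing is therefore not given. The calls for WL depended on the processing. Within an accession 0.44% of bins were called, against 0.174% with 100 genes per bin, 0.924% with 25 genes, 0.792% without the top gene of each side, and 0.176 to 2.46% without 1 replicate number. The differences between 1 accession and the others gave 0.176%, against 0.521% with 100 genes, 0.528% without the top genes, 0.264% without the 2 libraries nearest to another accession, and 0.088 to 1.5% without 1 replicate number. Bins called for WL shared over accessions went from 26.8% to 16.7% with 100 genes and to between 14.1 and 16.9% without 1 replicate number.

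For genes, the level under WL was called 229 times with edgeR and 2229 times with DESeq2, and 36 to 248 times without 1 replicate number. The pattern was called 3 times with edgeR, 454 times with DESeq2, 9 times without the 2 libraries, and 0 to 25 times without 1 replicate number. Tests of a gene in an accession that lay far below the other accessions numbered 1210, and 2730 with a limit of 1 CPM in place of 5. A gene low in several accessions counts once in each. The 1 accession whose chromosome balance passed under WL no longer passed without any 1 replicate number (exact permutation test, 0 accessions each time, and 1 to 3 at an unadjusted p under 0.05). The mean over accessions of 0.0176 points turned to -0.134 without the 10 top genes of each chromosome (p = 0.582, exact sign flips over all accessions), to -0.0905 without Gr and DH12 (p = 0.707), and lay between -0.340 and 0.216 without 1 replicate number, and none of these passed. Bo1g123360 turned from 0.139 to -0.119 (log2, mean WL minus WW) without replicate 2, within a range of -0.119 to 0.217 without 1 replicate number. The alternatives without the 2 libraries and without Gr and DH12 were chosen after seeing the data. The causes of these changes were not tested.

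The deviations of libraries showed no sign of pairing by replicate number. Libraries with the same number had a mean correlation of -0.018 (median over accessions), against 0.01 for different numbers. The first was the higher in 5 of 16 accessions. Of the pairs with the same number, 392 of 1121 correlated over 0.1, and this rate is not given for different numbers. Whether the design paired libraries cannot be told from these values. With the replicate number as a block, 0.704% of bins were called for WL within an accession, and 147 genes for the level and 0 for the pattern (edgeR, 4859 at an unadjusted p under 0.05).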
